A study of Sus scrofa with 6 samples.

Results

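The 39 miRNAs described here are those for which the arrays gave a value on only a few of the 6 samples. They were selected on the measured values themselves. Of 236 rows with a pig miRNA name, they are the rows with a value on at least 1 array but not on at least 2 arrays of each breed. Of the other named rows, 96 had a value on all 6 arrays, 88 were blank throughout, and 13 had a blank cell but at least 2 values in each breed. Because listing, meaning the presence of a value, chose the 39 miRNAs, their listing and signals are given as a description, with no test.

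Livers of newborn male piglets of the Large White (LW) and Erhualian (EHL) breeds were compared on 3 arrays a breed. Each array received the pooled RNA of 2 littermates, which makes 6 piglets a breed, and a pool hides the difference between its littermates. The animals came from neighbouring farms, and the sources used here do not say which breed was kept on which farm, so a part of the farm in any difference was not tested. The values are background-subtracted and normalized fluorescence intensities of a single dye in whole numbers, called signals here. The study names low fluorescence, and for some miRNAs possible base differences from the probe, as reasons why a miRNA was undetected, but the threshold that left a cell blank is not given in the sources used here. A blank is therefore not a level of 0, and signals of different probes do not rank the abundance of their miRNAs. Of 4 hepatocyte miRNAs looked up to check the tissue, miR-122, miR-148a and miR-192 had a value on all 6 arrays and miR-194 was blank on all of them. The signal of miR-122, a miRNA made mainly by hepatocytes, was 28071, 18958 and 23800 on LW arrays 1, 2 and 3 and 20649, 20007 and 18287 on EHL arrays 1, 2 and 3.

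A miRNA is a short RNA cut from a hairpin precursor that guides a silencing complex to messenger RNAs, mainly through a few bases near its start, the seed. Either arm of the hairpin can be kept, and the suffixes 5p, 3p and * tell the arms apart, with * for the arm named as minor. Many miRNAs are typical of a cell type or of a state such as low oxygen, so that a tissue yields some of them in large and others in very small amounts.

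Mature sequences of the 39 miRNAs were not analysed here. The sequences shown are forward primers that the study designed for quantitative PCR of 1 of the 39 miRNAs, miR-133a, and of 4 close relatives of others. miR-15b is the paralogue of miR-15a, miR-146a that of miR-146b, and miR-500 and miR-532-5p come from the cluster of miR-362, whose values are given with those of its neighbours. Each primer is written 5′ to 3′, with its bases 2 to 8 in capitals, and the 5 primers had 5 different runs of capitals.
miR-133a: tTGGTCCCcttcaaccagctg
miR-15b: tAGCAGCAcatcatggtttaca
miR-146a: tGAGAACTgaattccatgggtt
miR-500: aTGCACCTgggcaaggattct
miR-532-5p: cATGCCTTgagtgtaggaccgt

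The 39 miRNAs had 75 values in 234 cells, 49 of 117 on the LW arrays and 26 of 117 on the EHL arrays. A value was present on 1 array for 17 of them, on 2 arrays for 12, on 3 arrays for 6 and on 4 arrays for 4. By breed, 15 were listed on LW arrays only, 9 on EHL arrays only and 15 on arrays of both. None was listed on all 3 arrays of 1 breed and on none of the other. Of the 22 miRNAs with at least 2 values, 15 had them in both breeds and 7 in a single breed. The 17 miRNAs with 1 value were spread unevenly over the arrays, with 7 on LW array 2, 6 on EHL array 3, 2 each on LW array 1 and EHL array 1, and 0 on LW array 3 and EHL array 2. In these counts, 17 miRNAs belonged to a single array, 15 crossed the breeds, and 7 kept to 1 breed on more than 1 array. With 3 arrays a breed, a miRNA with 1 value cannot cross the breeds and a miRNA with 4 values must. Of the 12 miRNAs with 2 values, 7 kept to 1 breed and 5 crossed, and the 6 with 3 values all crossed.

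**Figure D1:**
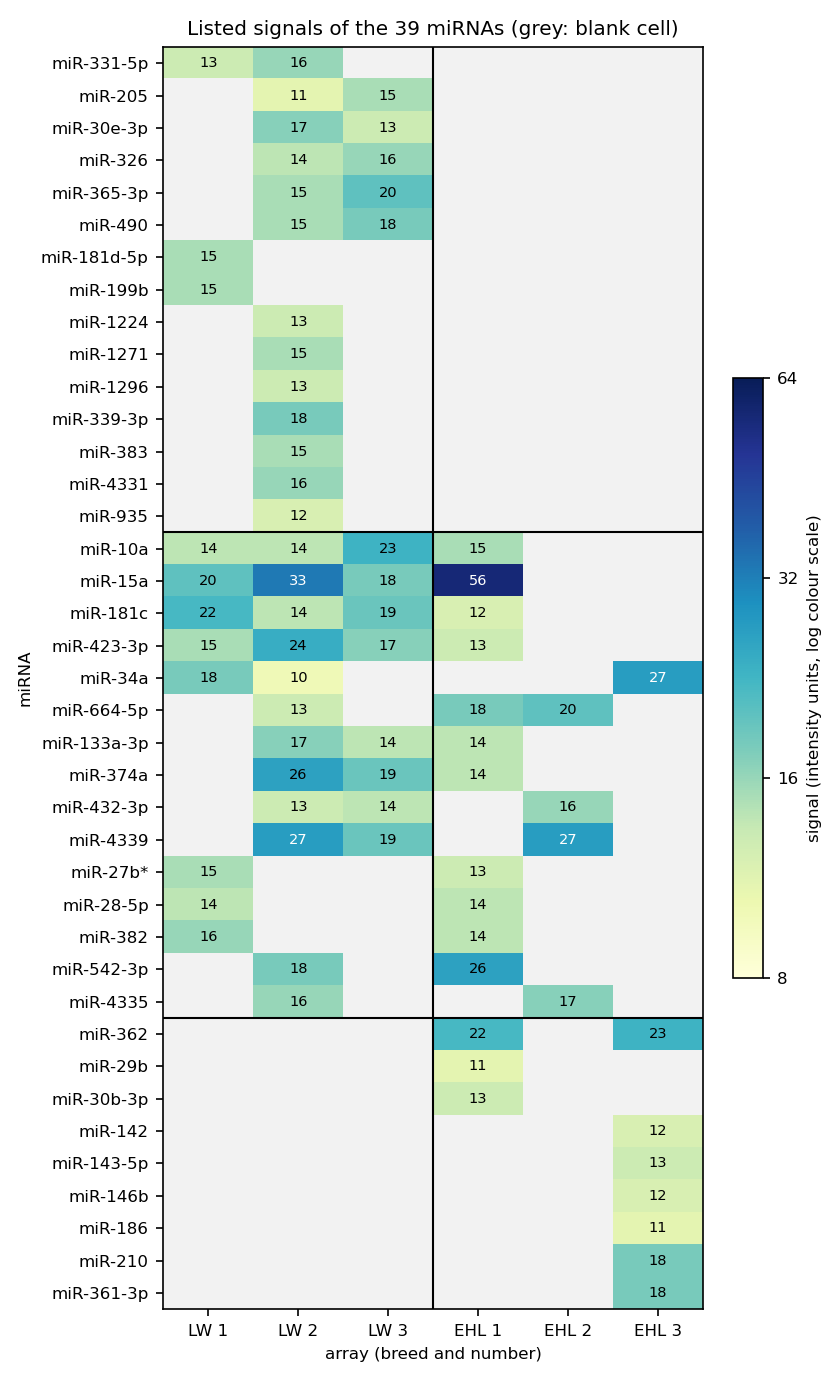
Signals (intensity units, log colour scale) of the 39 miRNAs on the 3 LW and 3 EHL arrays, with blank cells in grey and black lines between breeds and between miRNAs listed in LW only, in both breeds and in EHL only. The column of LW array 2 is filled for 25 miRNAs and that of EHL array 2 for 4.

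**Figure D2:**
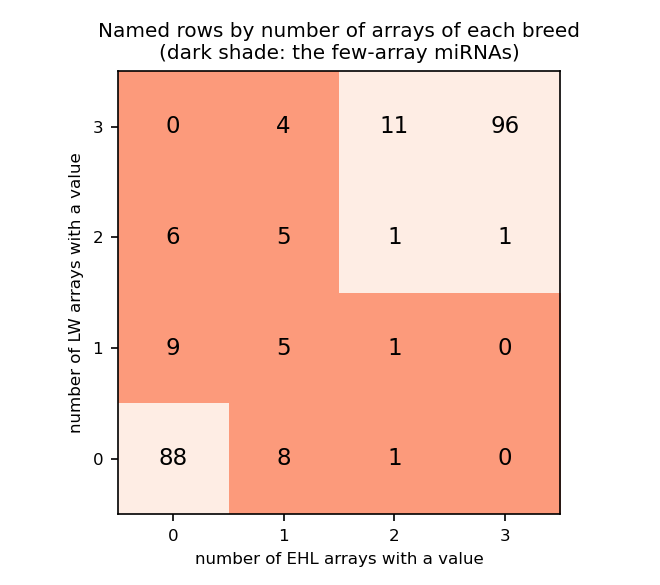
Number of the 236 named rows by the number of LW arrays (vertical axis) and EHL arrays (horizontal axis) with a value, with the cells of the 39 miRNAs in a darker shade. The corners for 3 arrays of 1 breed and 0 of the other hold 0 rows.

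Single arrays stood apart in the number of these miRNAs. LW arrays 1, 2 and 3 listed 11, 25 and 13 of the 39, and EHL arrays 1, 2 and 3 listed 14, 4 and 8. LW array 2 thus had the most and EHL array 2 the fewest of the 6, and the other arrays lay between 8 and 14 with the breeds overlapping. With LW array 2 and EHL array 2 both left out, an alternative chosen after seeing the data, 10 miRNAs were listed in LW only, 11 in EHL only, 10 in both and 8 on no array. Of the 15 pairs of arrays, LW arrays 2 and 3 shared the most, 13 miRNAs, which were all those of LW array 3. LW array 2 also shared all 4 miRNAs of EHL array 2. With shared blanks counted too, LW array 1 and EHL array 1 had the same listing for the most miRNAs, 28. It was 27 for LW arrays 2 and 3 and for EHL arrays 2 and 3. LW array 1 shared 7 miRNAs with EHL array 1, against 6 with LW array 2 and 4 with LW array 3. EHL array 3 shared 1 miRNA with EHL array 1 and 0 with EHL array 2. Leaving out EHL array 1 moved the number listed in LW only from 15 to 25 and the number in both breeds from 15 to 5. Without LW array 2 the number in LW only was 8, and without EHL array 3 the number in EHL only was 3 in place of 9.

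The rest of the array is the background for these counts. The named rows outside the 39 had 108, 109 and 108 values on LW arrays 1, 2 and 3 and 109, 97 and 109 on EHL arrays 1, 2 and 3, so that EHL array 2 was low there too. Over all named rows, the 39 included, an LW array listed 124.7 ± 8.14 and an EHL array 113.7 ± 11.4 (SD, n = 3 arrays each), given without a test since the 39 were chosen by their listing. The difference of 11 was 4.67 without EHL array 2, 6.33 without LW array 2 and 15.7 without EHL array 1. Both means were 120 with LW array 2 and EHL array 2 left out. With only signals of at least 20 counted the difference was 2.67, and with at least 32 it was -1, higher in EHL. The lowest signal given for any named row was 13, 10 and 13 on LW arrays 1, 2 and 3 and 11, 16 and 11 on EHL arrays 1, 2 and 3. It was lowest on LW array 2, which listed the most of the 39 miRNAs, and highest on EHL array 2, which listed the fewest. On each array it was also the lowest signal of the 39 miRNAs, so it is not independent of their listing. Signals below 20 were given for 25 named rows on LW array 2, 21 of them among the 39, and for 3 on EHL array 2, 2 of them among the 39. The median signal of the 96 rows listed on all 6 arrays was 187 on LW array 2 and 213 on EHL array 2, and from 208 to 218 on the other 4. The part of the array's lowest listed signal in the listing was not tested.

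**Figure D3:**
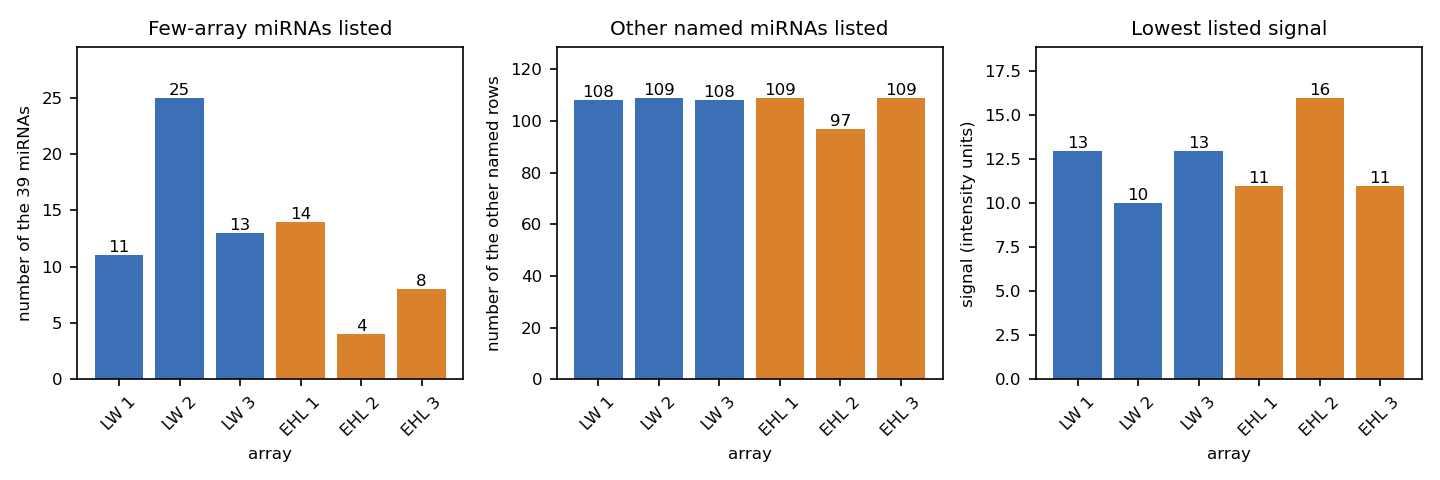
Bars for each array (LW in blue, EHL in orange) give the number of the 39 miRNAs with a value, the number of other named rows with a value, and the lowest signal of any named row in intensity units. LW array 2 has 25 of the 39 and a lowest signal of 10, and EHL array 2 has 4 and a lowest signal of 16. On each array the lowest signal is also the lowest of the 39 miRNAs.

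Just outside the rule, only miR-1306-3p was listed on exactly 2 arrays of each breed. Its signal was 16 and 16 on LW arrays 2 and 3 and 13 and 19 on EHL arrays 1 and 3, which is within the range of the 39. The other 12 named rows with a blank had a value on 5 arrays, and the blank was on EHL array 2 for 11 of them. Among these 11 were brighter rows such as miR-101, at 67, 66 and 63 on the LW arrays and at 159 and 29 on EHL arrays 1 and 3, chosen as an example after its values were seen. The pattern of these 11 rows has the same listing on 5 of 6 arrays as that of miR-10a, miR-15a, miR-181c and miR-423-3p, and differs from it on EHL array 3.

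The listed signals of the 39 miRNAs were low, from 10 to 56 with a median of 15. Of the 75 values, 60 (80%) were below 20 and 73 below 30. The array medians of these values were 15, 15 and 18 on LW arrays 1, 2 and 3 and 14, 18.5 and 15.5 on EHL arrays 1, 2 and 3. Among the 22 miRNAs with at least 2 values, the highest was a median of 1.32 times the lowest, and at most 3.11 times, in miR-15a. Highest signal and number of arrays went together over the named rows, and since both come from the same measurement this is a description. The median of the highest signals was 13 for rows with 1 value, 16.5 with 2, 23 with 3 and with 4, 38.5 with 5 and 350.5 with 6. Of 45 rows that were listed but never reached 30, 38 were among the 39 miRNAs, and of 103 rows that reached 30 on some array, 1 was, miR-15a.

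**Figure D4:**
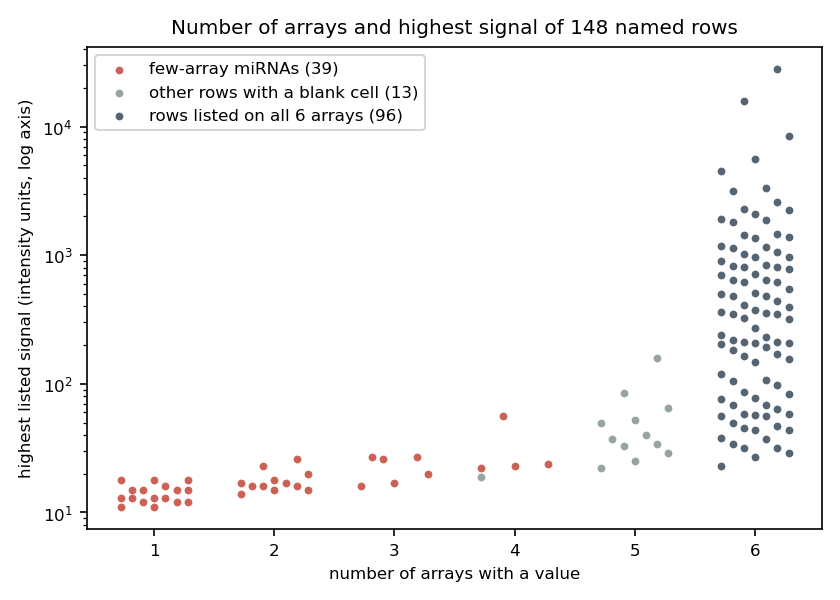
Highest listed signal (intensity units, log axis) of each named row with a value against the number of arrays with a value. Red points are the 39 miRNAs, grey points the 13 other rows with a blank cell and dark points the 96 rows listed on all 6 arrays, and points are spread sideways within each number of arrays.

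Values on 4 arrays were given for miR-15a, miR-10a, miR-181c and miR-423-3p, and these were the same arrays, all 3 of LW together with EHL array 1. miR-15a, which restrains the survival factor BCL2 and is transcribed together with miR-16, had signals of 20, 33 and 18 on LW arrays 1, 2 and 3 and of 56 on EHL array 1. It was the only 1 of the 39 to reach 32, and its highest value was on an EHL array while the other EHL arrays were blank. miR-10a, whose gene lies among the HOX genes, had signals of 14, 14 and 23 on the LW arrays and 15 on EHL array 1. miR-181c, of a family known from lymphocyte development, had 22, 14 and 19 on the LW arrays and 12 on EHL array 1. miR-423-3p had 15, 24 and 17 on the LW arrays and 13 on EHL array 1. For miR-181c and miR-423-3p the EHL value lay under all 3 LW values, and for miR-10a it lay within them.

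Another 6 miRNAs had 3 values, all of them in both breeds and all with a value on LW array 2. miR-133a-3p, known from skeletal and heart muscle, had signals of 17 and 14 on LW arrays 2 and 3 and 14 on EHL array 1. miR-374a, with the same arrays, had 26 and 19 in LW and 14 in EHL. The EHL value was at or under the lower LW value in both. miR-432-3p, from the imprinted DLK1-DIO3 cluster, had 13 and 14 on LW arrays 2 and 3 and 16 on EHL array 2. miR-4339 had 27 and 19 on LW arrays 2 and 3 and 27 on EHL array 2. These are 2 of the 4 miRNAs that EHL array 2 listed, and both had there a value no lower than in LW. miR-664-5p had 13 on LW array 2 and 18 and 20 on EHL arrays 1 and 2, and was the only 1 of the 39 with values on 2 EHL arrays and an LW array. miR-34a, induced by the tumour suppressor p53, had 18 and 10 on LW arrays 1 and 2 and 27 on EHL array 3. Its EHL value was above both LW values.

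Values on 2 arrays of 1 breed and on none of the other were found for 7 miRNAs, 6 in LW and 1 in EHL. On LW arrays 2 and 3, miR-205, known from epithelia, had signals of 11 and 15. miR-30e-3p, from a precursor of the miR-30 family, had 17 and 13 there. miR-326 had 14 and 16 on the same arrays. The higher value was on LW array 3 for miR-205 and miR-326 and on LW array 2 for miR-30e-3p. miR-365-3p and miR-490 had values of 15 on LW array 2, with 20 and 18 on LW array 3. miR-331-5p had 13 and 16 on LW arrays 1 and 2. None of these 6 had a value on all 3 LW arrays, and none of their signals was above 20. In EHL, miR-362 was the only miRNA of this kind, with 22 on array 1 and 23 on array 3 and a blank on array 2. Its values thus differed by 1 unit, and the listing covered 2 of the 3 EHL arrays.

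Of the 5 miRNAs with 1 value in each breed, miR-27b*, miR-28-5p and miR-382 were listed on LW array 1 and EHL array 1, with signals from 13 to 16. For miR-28-5p both were 14. miR-542-3p, of an X-linked cluster with miR-450 genes, had 18 on LW array 2 and 26 on EHL array 1. miR-4335 had 16 on LW array 2 and 17 on EHL array 2. In these last 2 miRNAs the EHL value was the higher. On LW array 2 alone, miR-1224, miR-1271, miR-1296, miR-339-3p, miR-383, miR-4331 and miR-935 had signals from 12 to 18. LW array 1 alone listed miR-181d-5p and miR-199b, both at 15. EHL array 1 alone listed miR-29b, a regulator of collagen genes, at 11, and miR-30b-3p at 13. All 11 of these values were below 20. EHL array 3 alone listed 6 miRNAs at 11 to 18. These were miR-142, made in blood cells, miR-143-5p, an arm of a smooth muscle miRNA, miR-146b, induced in inflammation, miR-186, miR-361-3p, and miR-210, the miRNA most known from the response to low oxygen. Their signals were 12, 13, 12, 11, 18 and 18, so that all 6 were below 20.

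Of 29 rows for miRNAs that mark other cell types, 16 were blank, 8 had values on all 6 arrays and 5 (17.2%) were among the 39, beside 16.5% of all named rows. Of 8 rows for muscle miRNAs, miR-133a-3p was listed on few arrays and 7 were blank, miR-1 and miR-206 among them. The only row for an epithelial miRNA was miR-205. Of 8 rows for blood and immune miRNAs, 4 had values on all 6 arrays, miR-142 and miR-146b were listed on EHL array 3 only, and miR-146a and miR-155 were blank. The summed signals of these 8 rows were 967, 545 and 580 on LW arrays 1, 2 and 3. On EHL arrays 1, 2 and 3 they were 748, 518 and 831. A sum adds signals of different probes, miR-142 and miR-146b included. Of 5 rows for endothelial and smooth muscle miRNAs, 3 had values on all 6 arrays, miR-143-5p was listed on EHL array 3, and miR-126* was blank. Of 5 rows for neural miRNAs, 4 were blank and miR-128 had a value on all 6 arrays, and both rows for pancreatic miRNAs were blank. The part of other cell types in the listing was not tested.

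Some of the 39 miRNAs belong to known clusters or share a precursor with another row. Of 16 rows matched by a list of miRNAs from the DLK1-DIO3 cluster, where genes are expressed from a single parental copy, 13 were blank, miR-382 and miR-432-3p were listed on few arrays, and miR-127 had 5 values. The list did not hold miR-299 of the same cluster, which had values on all 6 arrays. Of 7 rows matched by a list for the clusters of miR-17 and miR-92a, which promote cell proliferation, 3 had values on all 6 arrays, 1 had a blank cell, 3 were blank throughout and 0 were among the 39. Rows named miR-18 and miR-20, without the letter that this list has, were not matched by it and had values on all 6 arrays. Of 9 rows whose names carry *, 4 had values on all 6 arrays, 4 were blank and 1, miR-27b*, was among the 39. The mark is taken from the name only, since miR-199b* had values on all 6 arrays and miR-199b on 1. These counts were not tested. The array had a row for the other arm of 17 of the 39 miRNAs. That row had values on all 6 arrays for 9 of them, such as miR-423-5p, miR-30e-5p and miR-143-3p, on 5 for miR-28-3p, and was blank for 7, such as miR-133a-5p. No precursor had both arms among the 39.

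In the RefSeq gene table of Sscrofa11.1, 36 of the 39 miRNAs had a gene. For 21 of them (58.3%) it lay within the span of a protein-coding or long noncoding gene, strand not considered. The share was 67.8% for the 90 rows with a gene among those listed on all 6 arrays and 66.2% for 71 such rows blank on all arrays. Examples are miR-490 within the muscarinic receptor gene CHRM2, miR-326 within ARRB1, miR-28-5p within LPP, miR-186 within ZRANB2 and miR-199b within DNM1. Another miRNA gene lay within 10 kb for 12 of the 36 (33.3%), against 48.9% and 45.1% in the same classes of rows. Among the 13 other rows with a blank cell, 12 had a gene, and both shares were the same as for the 39, 58.3% and 33.3%. These shares were not tested.

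Differences between the breeds can be given for those relatives of the 39 miRNAs whose rows have enough values. Relatives were taken as the other arm, rows of the same miRNA number, and miRNAs with a gene within 10 kb. For 15 of the 39 the array had no such row. Of 51 such rows outside the 39, 26 had values on all 6 arrays, 5 had a blank and 20 were blank throughout. The limma fit on log2 signals covered 109 named rows with at least 2 values in each breed and called 0.917% of them, 1 row, at an adjusted p under 0.15. It tested 31 relatives and called 0 of them, with 3 at an unadjusted p under 0.05, against 13 of the 109. These 3 were miR-27a, miR-500 and miR-532-5p, and the p-values measure the spread between these arrays of pooled RNA. SAM, as recomputed here, called 2 relatives, miR-500 and miR-532-5p, and 7.34% of the 109 rows. Of the 31 relatives, 16 had a higher and 15 a lower mean in EHL, with a median log2 difference of 0.03 beside 0.02 over the 109 rows. The count moved most without EHL array 1, where limma called 6 of 26 relatives tested, miR-27a, miR-500 and miR-532-5p among them, and 24.7% of the 97 rows tested over all.

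The relatives of miR-362 are its neighbours in an X-linked cluster. The signal of miR-500 was 23, 20 and 16 on LW arrays 1, 2 and 3 and 24, 34 and 45 on EHL arrays 1, 2 and 3. That of miR-532-5p was 114, 80 and 64 on the LW arrays and 123, 192 and 354 on the EHL arrays. In both, every EHL array was above every LW array, and EHL array 1 was next to the LW values. How many of the 109 rows separate the breeds in full was not counted, here or for miR-15b and miR-27a below. The log2 difference of EHL from LW was 0.77 (standard error 0.30, limma adjusted p = 0.310) for miR-500 and 1.28 (standard error 0.40, limma adjusted p = 0.244) for miR-532-5p. Over the alternatives the adjusted p ranged from 0.0466 to 0.976 for miR-500 and from 0.00986 to 0.871 for miR-532-5p, lowest without EHL array 1. miR-362 had no value on EHL array 2, where both neighbours were above all LW arrays. The other arm of miR-532-5p, miR-532-3p, had 29, 29 and 34 on the LW arrays and 22 and 26 on EHL arrays 1 and 3, with a log2 difference of -0.35 (standard error 0.28, limma adjusted p = 0.684). The arms of this precursor thus had differences of opposite sign, which were not set against each other in a test.

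miR-15a has miR-16 as its neighbour and miR-15b as its paralogue. The signal of miR-16 was 495, 426 and 485 on LW arrays 1, 2 and 3 and 642, 372 and 517 on EHL arrays 1, 2 and 3. The breeds overlapped, and its highest value was on EHL array 1, where miR-15a too had its highest. The signal of miR-15b was 155, 144 and 183 on the LW arrays and 128, 116 and 113 on the EHL arrays, with every EHL array below every LW array. The log2 difference was 0.09 (standard error 0.28, limma adjusted p = 0.953) for miR-16, with the sign turned by quantile normalization and without EHL array 1, and -0.43 (standard error 0.24, limma adjusted p = 0.518) for miR-15b. Neither passed the threshold. Quantile normalization moved the median log2 difference of all 109 rows by -0.29. With it the log2 difference was -0.83 for miR-15b, -0.63 for miR-532-3p and -1.38 for miR-27a. The means of miR-500 and miR-532-5p were higher in EHL with it too, with log2 differences of 0.58 and 0.84.

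miR-27a, the paralogue of the miRNA whose minor arm is miR-27b*, had signals of 131, 148 and 143 on LW arrays 1, 2 and 3 and of 98, 76 and 63 on EHL arrays 1, 2 and 3. The LW and EHL values did not overlap, with EHL the lower. Its log2 difference was -0.85 (standard error 0.26, limma adjusted p = 0.244), and the adjusted p ranged from 0.0380, without EHL array 1, to 0.871 over the alternatives. miR-27b* itself had 1 value in each breed. Its other arm, miR-27b, had a log2 difference of -0.19 (limma adjusted p = 0.833). Its neighbours miR-23b and miR-24 had log2 differences of 0.03 (limma adjusted p = 0.974) and 0.70 (limma adjusted p = 0.415). The relatives of miR-27b* thus did not share a direction.

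**Figure D5:**
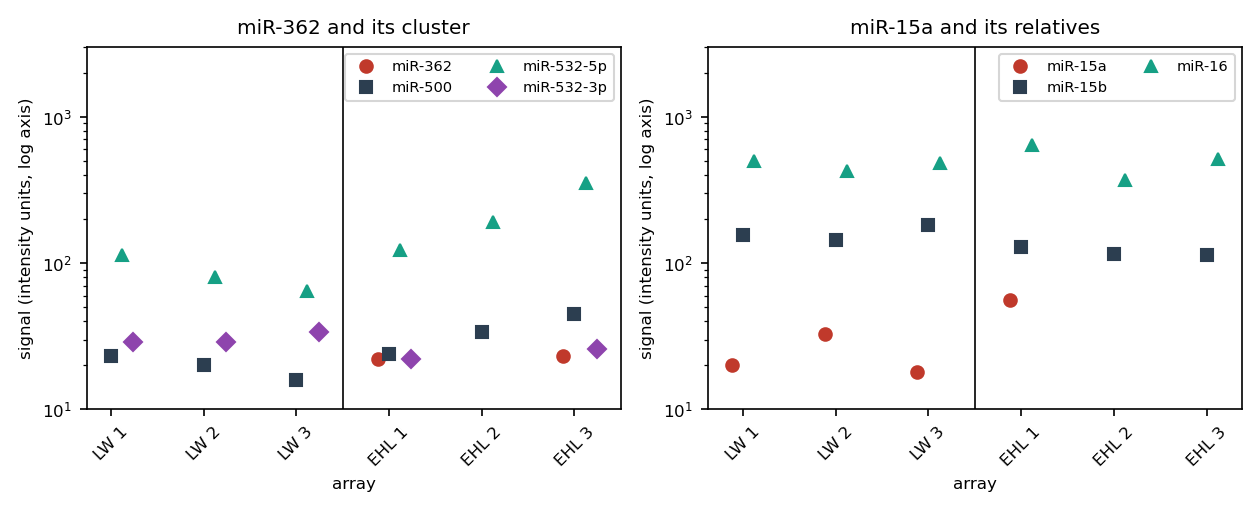
Signals (intensity units, log axis) on the 6 arrays of miR-362 with its cluster neighbours (left) and of miR-15a with its relatives (right), where a missing point is a blank cell and symbols are shifted sideways so that equal values can be seen. miR-500 and miR-532-5p are higher on each EHL array than on each LW array, and miR-15a has its highest value, 56, on EHL array 1.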

How the data were processed

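The authors subtracted the background of the Cy5 fluorescence, normalized the signals by LOWESS and deposited linear intensities, 1 for each row and array, rounded to whole numbers and in part left blank. Listing was taken as the presence of a value. The 39 miRNAs, the lists and the tests were chosen with earlier results of these data known. All 39 are named. Every value is given for those with at least 3 values, those with at least 2 values in 1 breed and none in the other, and those reaching 32. For relatives, log2 intensities were fitted in R 4.3.3 with limma 3.58.1 (lmFit and eBayes, breed as the only term) with Benjamini-Hochberg adjustment over 109 rows and a threshold of 0.15. A planned permutation test of the number of rows listed per array is not reported, since listing chose the 39. SAM was recomputed from its statistic with all relabellings of the arrays, and both methods were checked on simulated data. Precision is limited by the number of arrays. No table of mature sequences was used here, so relatives by seed were replaced by rows of the same miRNA number, and lengths and base composition were not computed. The RefSeq table was used only for names, neighbours and containing genes. Tables and figures were made with pandas 2.3.3 and numpy 2.4.6 under Python 3.11.15.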

Additional observations from a re-analysis of the deposited data

Results flagged for a closer look

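A signal was also present in rows that the comparisons did not use. Of the 100 rows that carry an LRS label in place of a miRNA's name, 13 met the same listing rule as the 39 miRNAs, with signals from 13 to 147. LW arrays 1, 2 and 3 listed 4, 7 and 6 of them and EHL arrays 1, 2 and 3 listed 7, 1 and 6, so EHL array 2 was lowest here too. All 3 LW arrays together with EHL array 1 listed 3 of the 13, the pattern of miR-15a. What these rows measure is not given in the sources used here.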

How the results depend on the processing

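The listing of the 39 miRNAs by breed changed with the signal required. With a signal of at least 20, 5 miRNAs were listed in LW only, 4 in EHL only and 2 in both, and with at least 32 these were 0, 0 and 1. Leaving out each array in turn gave 8 to 25 in LW only, 3 to 12 in EHL only and 5 to 15 in both. The rule itself, applied to signals of at least 20, gave 15 miRNAs, 11 of them among the 39. Rows with a value but no breed listed in full numbered 36, and rows with both a value and a blank 52. The difference in named rows listed per array, 11 more in LW, was 2.67 at a signal of at least 20, -1 at a signal of at least 32, 0 without LW array 2 and EHL array 2, 4.67 to 15.7 with each array left out, and 11 with a replicate block. The deviations of same-numbered arrays from their breed's mean had correlations of -0.50, -0.01 and -0.66 over the rows listed on all 6 arrays. Arrays of different numbers were not compared in this way, so whether same-numbered arrays share more than a number was not tested. The limma count of rows higher in EHL, 1, was 0 with a replicate block and with quantile normalization, 4 with array weights, 8 by SAM, and 0 to 15 with each array left out. For rows lower in EHL, 0 became 3 with array weights and 0 to 9 with each array left out. Relatives called, 0, became 2 with array weights, 2 by SAM, and 0 to 6 with each array left out. The log2 difference of miR-16 was -0.19 with quantile normalization and between -0.0927 (without EHL array 1) and 0.30 with each array left out. Those of miR-500, miR-532-5p, miR-532-3p, miR-15b and miR-27a kept their sign in each alternative that included them. miR-532-3p was not fitted without EHL array 1 or EHL array 3, or among rows listed on all 6 arrays. The fit of rows with a mean signal of at least 32 left out miR-532-3p and miR-500. The median signal of the 39 miRNAs stayed between 15 and 16.7. The cause of these changes was not tested. The dim signals limit what can be read: 80% of the values lie below 20 and near each array's lowest listed signal.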
